A study of Mus musculus with 7 samples.

Results

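The collagens and laminins studied here are 41 genes for the extracellular matrix around muscle stem cells (MuSCs), taken from a fixed list of gene symbols out of 21436 protein-coding genes with an annotated transcription start site. They comprise 9 genes for fibrillar collagens, 9 for network-forming collagens, 10 for laminin chains and 13 for other collagens (beaded or anchoring, FACIT, multiplexin and transmembrane). MuSCs lie between the plasma membrane of the myofiber and a sheath of basement membrane. That sheath is built from laminin trimers of an alpha, a beta and a gamma chain and from a meshwork of collagen IV, while fibrillar collagens I, III and V fill the tissue outside it. Quiescent MuSCs are known to make part of this niche themselves, including collagen V, a target of Notch signaling that is known to help hold them in quiescence.

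Chromatin accessibility was measured by ATAC-seq, in which the Tn5 transposase cuts and tags open DNA. Each library came from 5000 MuSCs sorted fresh from the skeletal muscle of male mice a few weeks old, and was made for 4 Nedd4L-cKO and 3 WT samples. In Nedd4L-cKO mice a catalytic-domain exon of the gene for Nedd4L, an E3 ubiquitin ligase, is floxed and cut out by a Cre driven from Pax7, while the gene is still transcribed. The Cre acts in MuSCs and in all cells that descend from Pax7-expressing precursors, myofibers included. Whether WT mice carried the Cre, and whether a library came from 1 mouse or from pooled mice, is not given in the labels. The study counts 4 Nedd4L-cKO and 3 WT male mice for this assay, as many as there are libraries. The comparison asks whether the deletion of Nedd4L changed how open these matrix genes are in MuSCs. The outermost start of Nedd4l had a peak in 0 of 7 libraries. This lies outside the deleted exon and does not check the labels.

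MACS2 kept between 15.0 and 20.1 M tags per Nedd4L-cKO library and between 14.4 and 17.4 M per WT library, and the lists held from 69302 to 79158 peaks. WT replicate 3 was run on lane 2 and the other 6 libraries on lane 1. All 10 MuSC markers, Pax7 and Myf5 among them, had a promoter peak in all 7 libraries, and 0 of 8 immune markers had one in any library. Among 8 fibro-adipogenic markers, Dpt and Gsn were open in all libraries, Dcn in 5, Lum in 1 and Pdgfra, Pi16, Ly6a and Mfap5 in none. Among 8 endothelial markers Kdr, Tek and Egfl7 were open in all libraries, with means of 44.1, 80.5 and 75.3, Esam in 1 and Pecam1, Cdh5, Tie1 and Emcn in none. Of the tenocyte, smooth muscle or pericyte and Schwann cell lists, 4 of 5, 4 of 6 and 3 of 5 promoters were open in all libraries, while Tnmd and Sox10 were open in none. The percentiles summed over the fibro-adipogenic list ran from 153 to 199.5 in Nedd4L-cKO and from 151 to 187 in WT libraries, over the endothelial list from 172 to 217 and from 201 to 268, and over the tenocyte list from 179.7 to 256 and from 191 to 214. Over the smooth muscle or pericyte list they ran from 275 to 384 and from 286 to 302, and over the Schwann cell list from 209 to 224 and from 197 to 212. An open matrix promoter in MuSCs and one in a few cells of another type cannot be told apart in a bulk library, and the part of such cells in the values below was not tested.

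To show what these promoters look like, 6 of them are given as RefSeq has them on GRCm38, the same assembly as mm10, each from 250 bases before to 50 bases after the start. The table used for this holds 29 of the 41 genes. Col5a1 (chr2:27886175-27886474, + strand) and Lama2 (chr10:27616893-27617192, - strand) were among the most open of their classes by peak height (pileup). Col4a2 (chr8:11312555-11312854, + strand) shares its promoter with Col4a1, which runs the other way. Col3a1 (chr1:45311288-45311587, + strand) was open without a single CpG, Col17a1 (chr19:47691993-47692292, - strand) had the largest genotype difference, and Col10a1 (chr10:34389731-34390030, + strand) was closed in every library. The Col17a1 difference did not pass adjustment. Its peak ended at base 47691991 at the furthest, so the printed window lies beside the peak and outside it in every library. Capitals mark GC boxes, which were searched as the letters GGGCGG. They also mark TATA boxes, searched as the letters TATAAA, and CCAAT boxes, searched by the letters of their name. All searches were on both strands.
Col5a1: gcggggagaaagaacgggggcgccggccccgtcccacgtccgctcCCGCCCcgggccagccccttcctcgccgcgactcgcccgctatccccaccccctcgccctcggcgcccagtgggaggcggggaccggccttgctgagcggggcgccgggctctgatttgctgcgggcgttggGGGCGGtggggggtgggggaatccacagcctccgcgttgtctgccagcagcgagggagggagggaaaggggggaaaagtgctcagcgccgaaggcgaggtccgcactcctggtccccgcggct
Col4a2: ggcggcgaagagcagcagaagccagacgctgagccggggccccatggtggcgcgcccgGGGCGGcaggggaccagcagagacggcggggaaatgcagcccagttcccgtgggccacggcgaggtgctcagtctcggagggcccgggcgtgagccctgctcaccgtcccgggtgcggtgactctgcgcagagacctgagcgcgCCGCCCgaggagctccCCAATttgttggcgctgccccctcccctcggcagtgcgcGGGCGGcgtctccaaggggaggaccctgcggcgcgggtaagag
Lama2: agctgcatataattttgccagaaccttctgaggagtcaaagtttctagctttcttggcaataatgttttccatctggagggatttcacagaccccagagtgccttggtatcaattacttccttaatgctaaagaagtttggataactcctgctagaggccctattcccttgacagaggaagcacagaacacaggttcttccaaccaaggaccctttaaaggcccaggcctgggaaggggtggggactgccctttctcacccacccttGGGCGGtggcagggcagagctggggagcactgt
Col3a1: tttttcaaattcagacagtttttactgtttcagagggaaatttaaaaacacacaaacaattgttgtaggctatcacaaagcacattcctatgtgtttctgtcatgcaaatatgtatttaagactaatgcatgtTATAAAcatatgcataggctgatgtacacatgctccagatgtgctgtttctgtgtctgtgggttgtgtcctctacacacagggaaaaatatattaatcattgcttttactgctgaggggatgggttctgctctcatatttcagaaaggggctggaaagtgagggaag
Col17a1: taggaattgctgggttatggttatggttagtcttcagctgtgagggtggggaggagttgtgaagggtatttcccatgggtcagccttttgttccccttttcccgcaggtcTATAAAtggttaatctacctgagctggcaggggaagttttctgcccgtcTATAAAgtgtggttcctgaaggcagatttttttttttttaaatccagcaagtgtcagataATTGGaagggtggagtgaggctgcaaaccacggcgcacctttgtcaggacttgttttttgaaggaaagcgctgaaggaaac
Col10a1: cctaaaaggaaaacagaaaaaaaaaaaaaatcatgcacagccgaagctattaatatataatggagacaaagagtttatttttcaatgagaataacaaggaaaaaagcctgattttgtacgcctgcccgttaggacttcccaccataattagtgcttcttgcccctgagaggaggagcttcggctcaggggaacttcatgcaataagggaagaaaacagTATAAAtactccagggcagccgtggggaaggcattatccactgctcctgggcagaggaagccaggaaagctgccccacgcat

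The sequences differ in kind. The Col5a1 window holds 34 CpG dinucleotides and 2 GC boxes, and the Col4a2 window holds 33 CpG, 3 GC boxes and a CCAAT box. The Lama2 window, although nearly as open by peak height (pileup), holds 1 CpG and 1 GC box. Over the 33 starts of the 29 genes, those with a peak in all 7 libraries had a median of 14 CpG per 300 bases, below the median of 20 over all open starts in the table. A GC box was found at 68.0% of the open starts of these genes and at 62.1% of all open starts, and a TATA box at 12.0% and 7.24%. The E-box CAGCTG, the motif class of MyoD and Myf5, was at 3 of the 25 open starts of these genes (12.0%) and at 15.7% of all open starts. The letters TGGGAA, the core bound by the Notch effector RBPJ, were at 5 of the 25 (20.0%) and at 23.2% of all open starts, and at 5 of their 8 starts not open in all libraries (62.5%), beside 27.1% of all such starts. These matches describe letters in a short window and not bound sites.

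A promoter was called open where a peak overlapped an annotated start by at least 1 bp within 1 kb. Of the 41 genes, 33 (80.5%) were open in all 7 libraries, beside 63.4% of all promoters. By class these were 9 of 9 fibrillar, 7 of 9 network and 9 of 10 laminin genes, and 8 of the 13 others, among them both multiplexin and both transmembrane genes. The excess over all promoters depended on the peak threshold. Among peaks with a −log10 q of at least 5, 17 of the 41 genes were open in all libraries, a lower share than the 53.5% of all promoters. Col10a1, the collagen of hypertrophic cartilage, and the FACIT genes Col9a1, Col12a1 and Col22a1 had no promoter peak in any library. The starts of Col12a1 and Col22a1 were known from the outer end of the gene alone.

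Another 4 genes were open in some libraries only. Col4a6, a collagen IV chain of specialised basement membranes, had percentiles of 0.462, 48.4, 10.0 and 9.59 in the Nedd4L-cKO libraries and of 24.1 and 1.60 in WT replicates 2 and 3, with no peak in WT replicate 1. The value of 48.4 was that of the Col4a5 peak, which in this library entered the window of 1 kb around the Col4a6 start without reaching that start. The outermost starts of both genes are 1275 bp apart. Col7a1, the anchoring fibril collagen of skin, had no peak in Nedd4L-cKO replicate 1 and percentiles of 18.1, 8.50 and 14.9 in the other Nedd4L-cKO and of 11.0, 11.1 and 16.1 in the WT libraries. Lamb3, a chain of the epithelial laminin, had a peak at its starts in Nedd4L-cKO replicates 1 and 4 alone, at the 1.37 and 2.98 percentile. Col6a3 was open at its start in Nedd4L-cKO replicate 2 alone, at the 50.1 percentile. None of the 41 genes was open in every library of one genotype and in none of the other, as 0.028% of all promoters were. Nedd4L-cKO libraries had a peak at 86.6 ± 1.41% (SD, n = 4) of the 41 promoters, and WT libraries at 84.6 ± 1.41% (SD, n = 3), a gap of 2.03 percentage points that rested on Col4a6, Col7a1, Lamb3 and Col6a3 and was 1.22 without WT replicate 1, while over all promoters the shares were 66.0 ± 0.742% and 66.1 ± 0.306%.

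**Figure D1:**
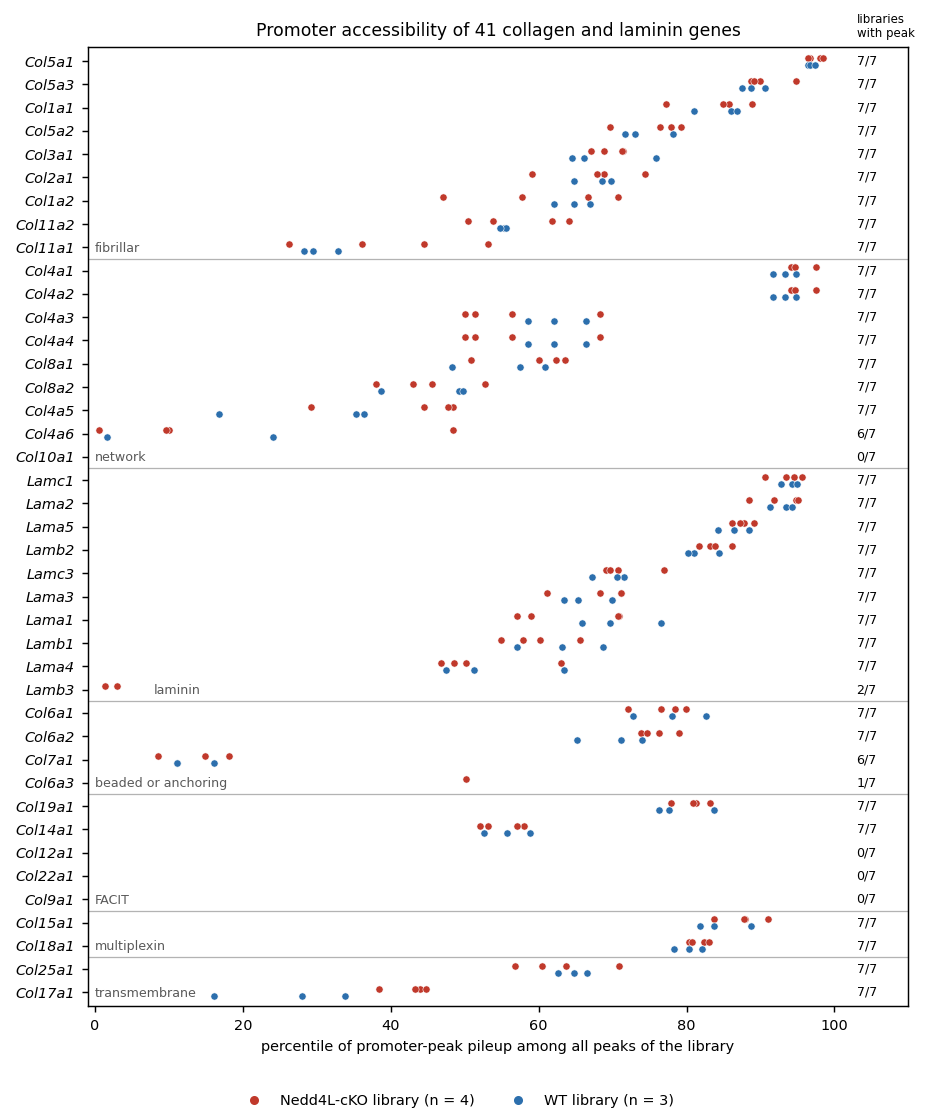
Percentile of the pileup of the promoter peak among all peaks of its library (x axis, 0 lowest and 100 highest) for each of the 41 genes (rows, by class), with 1 point per Nedd4L-cKO library (red, n = 4) and WT library (blue, n = 3) and the number of libraries with a peak at the right. The points of both genotypes overlap for all genes open in all libraries except Col17a1.

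The height of a promoter peak was given as the percentile of its pileup, the mean coverage by extended tags, among all peaks of the same library. Open promoters in general ranked high, with a median percentile of 86.7 ± 0.644 (SD over 7 libraries), and the 33 collagen and laminin promoters ranked lower, at 70.0 ± 0.848. Only 7 of the 33 had a mean percentile above the median of all open promoters: Col5a1, Col5a3, Col4a1, Col4a2, Lama2, Lama5 and Lamc1. Several of these encode the collagen V and collagen IV chains and the laminin chains known from the MuSC niche and the myofiber basement membrane.

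By pileup Col5a1 and Col5a3 were the highest fibrillar genes, whereas Col5a2 ranked below Col1a1. Col5a1, which encodes the most common chain of collagen V, was at 96.7, 98.04, 96.4 and 98.4 in the Nedd4L-cKO libraries and at 96.4, 96.7 and 97.3 in the WT libraries. Col5a3, the third collagen V chain, was at 94.8, 89.98, 88.7 and 89.1 and at 88.7, 87.6 and 90.7. Both were high in all 7 libraries, with overlapping genotypes. Col1a1 and Col5a2 followed with means of 84.4 and 75.2 over the 7 libraries, and Col3a1, Col2a1, Col1a2 and Col11a2 lay between 56.5 and 69.3. The cartilage gene Col11a1 was lowest, at 26.2, 53.1, 36.1 and 44.5 in Nedd4L-cKO and 29.5, 32.8 and 28.3 in WT. The collagen I genes, whose chains form 1 molecule, differed in rank, since Col1a2 had a mean of 62.3.

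Among the network collagens the genes fell far apart. Col4a1 and Col4a2, the chains of the collagen IV of every basement membrane, start 84 bp apart and share 1 peak in all 7 libraries, at 94.6, 94.1, 94.6 and 97.5 in Nedd4L-cKO and 94.8, 91.6 and 93.3 in WT. Col4a3 and Col4a4, chains of the kidney and lung basement membrane, start 113 bp apart and also share a peak in all libraries, at 51.4, 50.05, 56.4 and 68.3 and at 66.3, 62.1 and 58.6. Nedd4L-cKO replicate 4 was the highest of its group at both shared promoters. Col8a1 and Col8a2, short-chain collagens of endothelium and cornea, had means of 57.6 and 45.3. Col4a5 on the X chromosome was the lowest network gene open in all libraries, at 29.2, 48.4, 47.8 and 44.5 in Nedd4L-cKO and 16.8, 35.3 and 36.3 in WT.

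Laminin genes ranged from high to middling percentiles. Lamc1, the gamma chain of most laminins, was at 93.4, 95.7, 90.6 and 94.6 in Nedd4L-cKO and 94.3, 92.7 and 94.9 in WT. Lama2, the alpha chain of the main laminin of the myofiber, whose loss causes a congenital muscular dystrophy, was at 91.8, 88.4, 94.8 and 95.1 and at 93.5, 91.3 and 94.3. Neither gene separated the genotypes. Lamb2, the beta chain enriched at the neuromuscular junction, was at 81.7, 86.2, 83.2 and 83.9 and at 81.1, 84.4 and 80.2. Lamb1, the more widespread beta chain, was lower at 57.9, 60.2, 55.0 and 65.6 and at 63.1, 68.7 and 57.0, so that the ranges of Lamb1 and Lamb2 did not overlap over the 7 libraries. Lama5, made by MuSCs on activation and by many epithelia, had a mean of 87.1, Lamc3, Lama3 and Lama1 lay between 67.1 and 70.8, and Lama4, the alpha chain of vessels and nerves, was lowest at 48.6, 63.1, 50.2 and 46.8 and at 47.5, 63.5 and 51.3.

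Of the remaining collagens, Col6a1, a chain of the collagen VI that is known to support MuSC self-renewal, was at 78.4, 79.9, 72.0 and 76.5 in Nedd4L-cKO and 72.7, 82.6 and 78.1 in WT, and Col6a2 had a mean of 73.4. The multiplexins Col15a1 and Col18a1, which sit in basement membranes, had means of 86.4 and 81.0. In Col18a1 the highest promoter peak lay over the outermost start in 1 of 7 libraries and at the internal start in the others. The peak of Col15a1 also lay over the outermost start in 1 of 7, that of Col19a1 in 0 of 7 and those of Col2a1 and Lama3 in 3 of 7. In the other libraries these peaks were within 1 kb of a start. Col19a1 had a mean of 80.1, Col25a1 of 63.7, Col14a1 of 55.4 and Col17a1 of 35.5, the lowest of the 33 open promoters.

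The contrast between classes depended on how a peak was ranked. By pileup the median percentile of open promoters was 70.3 ± 2.56 for fibrillar, 59.0 ± 7.0 for network and 72.1 ± 3.24 for laminin genes (SD over 7 libraries). The network median was below the fibrillar median in 7 of 7 libraries, by 11.2 ± 7.73 percentile points on average and by 3.03 to 24.3 points in single libraries. In each library this network median was the value of the peak shared by Col4a3 and Col4a4, so it rests on 1 promoter. Counting a shared promoter once, chosen after seeing the data, gave a network minus fibrillar difference of -16.1 points. Laminin genes were above fibrillar genes in 5 of 7 libraries, by 1.83 ± 3.86 points, which is less than the spread between libraries. The deposited fold enrichment instead divides the pileup by the background over the surrounding 10000 bp or the genome. Ranked by it, fibrillar promoters fell to a median of 26.1 ± 6.48, while network and laminin promoters stood at 60.2 ± 8.30 and 56.3 ± 8.05 and all open promoters at 79.6 ± 0.763. The network median was then above the fibrillar median in 7 of 7 libraries, by 34.1 ± 7.65 points, and the laminin median in 7 of 7, by 30.2 ± 9.37. Not every network gene was higher by fold. Col4a3, Col4a4, Col4a5 and Col8a1 had means of 64.7 to 73.5. Col4a1 with Col4a2 had 9.82 and Col8a2 had 21.5, below the fibrillar median. The order of the network and fibrillar medians is thus opposite on the 2 scales, while on both the medians of the 3 classes lie below that of all open promoters.

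**Figure D2:**
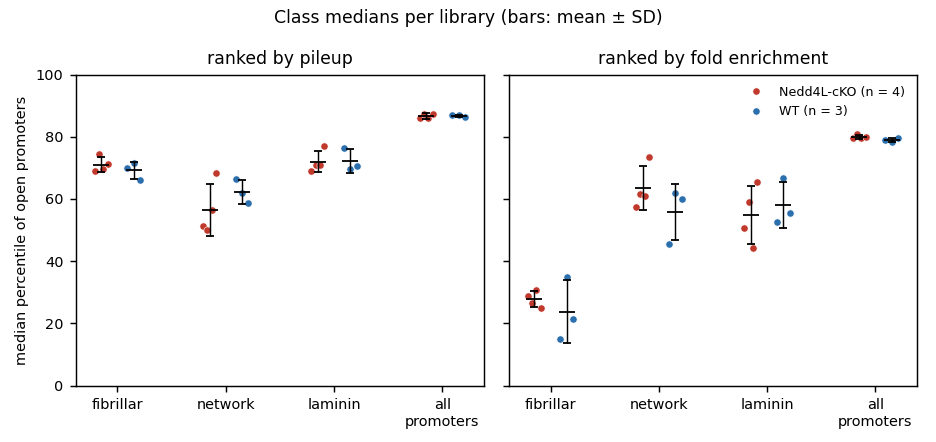
Median percentile of the open promoters (y axis) of fibrillar (n = 9 genes), network (n = 7) and laminin (n = 9) genes and of all 13590 open promoters, ranked by pileup (left) and by fold enrichment (right), with 1 point per library and bars for mean ± SD per genotype. The fibrillar median lies above the network median on the left, at 70.3 against 59.0, and below it on the right, at 26.1 against 60.2. On the left the network median of each library is the peak shared by Col4a3 and Col4a4.

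Single genes show what moved. The Col5a1 peak was 3946 to 4137 bp long with a pileup of 53.6 to 68.8, but its fold was 2.12 to 2.31, which put it at a mean percentile of 1.36 by fold. Lama5 had a peak of 660 to 785 bp with a pileup of 33.7 to 42.8 and a fold of 1.88 to 2.09, at the 0.370 percentile by fold. The shared Col4a1 and Col4a2 peak was at 9.82 and Col5a3 at 9.81 by fold. Lama2 moved less, at 92.7 by pileup and 76.3 by fold (4.22 to 4.91), although the latter is below the median of 79.6 of all open promoters. Lama1, a laminin of the embryo, was at 67.1 by pileup and was the highest of the 33 by fold, at 85.1 (4.58 to 5.56). The median promoter peak was 1663 bp long for fibrillar genes, 1425 bp for network genes, 1566 bp for laminin genes and 1321 bp for all open promoters.

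The genotypes were compared at each promoter with limma on normal scores of the ranks, with Benjamini-Hochberg adjustment over all 13590 promoters open in all libraries. No promoter of any gene passed an adjusted p under 0.05 (0 of 13590, 0%), and the lowest adjusted p was 1.00. At an unadjusted p under 0.05 there were 2 of the 33 promoters, beside 318 of all promoters (2.34%). The percentiles of the genotypes did not overlap at 1 of the 33 promoters (3.03%), beside 3.58% of all promoters. Of the 33 differences, 19 were above 0 in Nedd4L-cKO and 14 below, with a median of 0.05 normal-score units, beside a median of -0.0038 over all promoters.

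The lowest p belonged to Col17a1, a transmembrane collagen of hemidesmosomes. It was at 38.4, 43.9, 43.3 and 44.7 in Nedd4L-cKO and at 16.1, 33.8 and 27.9 in WT, so that every Nedd4L-cKO library was above every WT library. In normal scores Col17a1 was higher by 0.48 ± 0.12 (SE, limma unadjusted p = 0.0024, adjusted p = 1.00), and by 0.31 without WT replicate 1, the lowest library. The peak lay just downstream of the outermost start and over it in 0 of 7 libraries. Col4a5 followed with 0.37 ± 0.16 (limma unadjusted p = 0.045, adjusted p = 1.00), its genotypes overlapping, and with 0.17 without WT replicate 1. Lama1 had the lowest p in the other direction. It was at 58.9, 57.1, 70.9 and 70.8 in Nedd4L-cKO and 76.5, 69.6 and 65.8 in WT, a difference of -0.17 ± 0.12 (limma unadjusted p = 0.17, adjusted p = 1.00) that was -0.086 without WT replicate 1 and -0.11 without Nedd4L-cKO replicate 2. Col5a1 differed by 0.10 ± 0.098, Col5a3 by 0.11 ± 0.11, the shared Col4a1 and Col4a2 promoter by 0.18 ± 0.11 and Lama2 by -0.015 ± 0.12, each of them within 2 SE of 0. Single libraries moved these values by over 1.5 times. Without Nedd4L-cKO replicate 4 the difference was 0.041 for Col5a1 and 0.091 for Col4a1 and Col4a2. It was 0.16 for Col5a1 without Nedd4L-cKO replicate 3, 0.12 for Col4a1 and Col4a2 without WT replicate 2, and for Col5a3 it was 0.013 without Nedd4L-cKO replicate 1 and 0.073 without WT replicate 2. For Col5a1 the sign turned when peaks were ranked by fold (-0.03), and for Col5a3 when the window was 2.5 kb (-0.03).

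**Figure D3:**
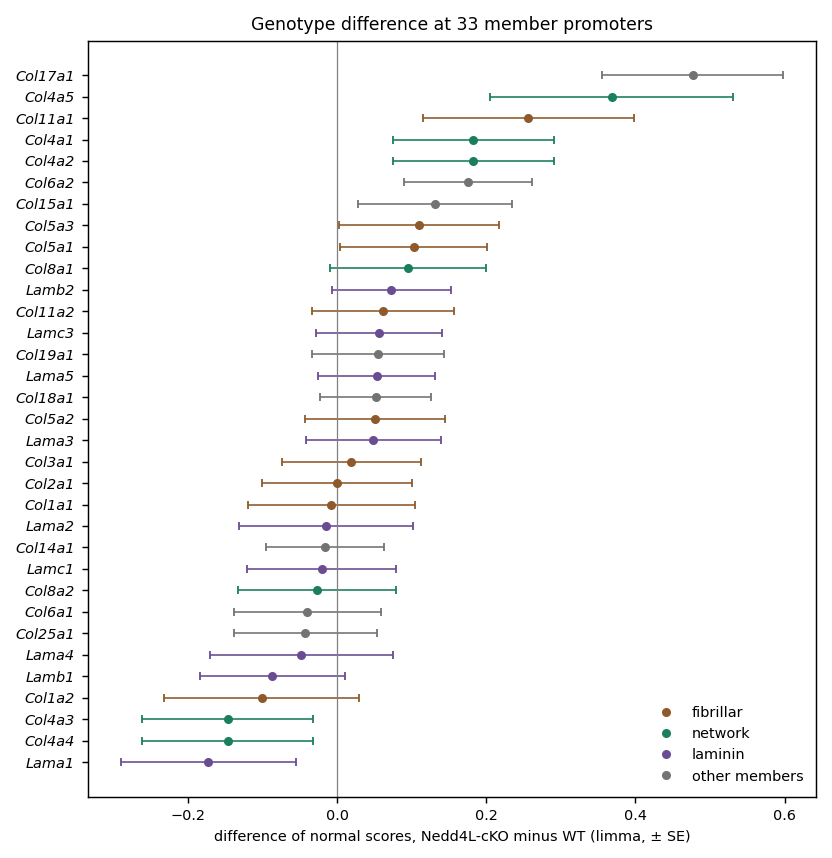
Difference of normal scores, Nedd4L-cKO minus WT, with its SE from limma (x axis) for the 33 genes with a promoter peak in all 7 libraries (rows, colored by class). The values run from -0.17 for Lama1 to 0.48 for Col17a1, and Col4a1 with Col4a2 and Col4a3 with Col4a4 share their peak and value.

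Beyond the promoters, the bodies of these genes held many accessible regions. Overlapping peaks of all libraries were merged, and regions within 1 kb of a gene's own starts were left to the promoters. The 41 genes held 307 such regions, of which 165 (53.7%) were shared by all 7 libraries and 48 were called in 1 library alone. Per 100 kb of gene there were 3.10 regions with a peak in all 7 libraries, beside 2.07 over all protein-coding genes. The network genes had 3.30, laminin genes 3.65 and fibrillar genes 2.56 per 100 kb. The median percentile of these regions by pileup was 73.2, 63.5 and 77.9, beside 54.5 over all gene bodies. The files give no exons, so whether a region was exonic or intronic was not analysed here.

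The density was uneven within each class. Of the 17 fibrillar regions with a peak in all 7 libraries, Col5a1 held 9 and Col5a3 5. Of the 40 such network regions, Col4a2 held 16 and Col4a1 13. Lama5 led with 14.1 regions per 100 kb, followed by Lamb3 with 12.1, Col4a2 with 11.7, Col4a1 and Col15a1 with 11.4, Col5a3 with 11.1 and Col8a2 with 10.9. Of the collagen I genes, neither Col1a1 nor Col1a2 had a gene-body region shared by all libraries, and the same held for Col5a2, Col11a1, Col11a2, Col4a5, Col10a1, Col6a2, Col14a1 and Lama4. Lama2 had the most regions of any of the genes, 31 over 635.9 kb, of which 13 were in all libraries. A region in Lamb2 and another in Lamc3 also lay within 1 kb of the start of a neighboring gene.

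**Figure D4:**
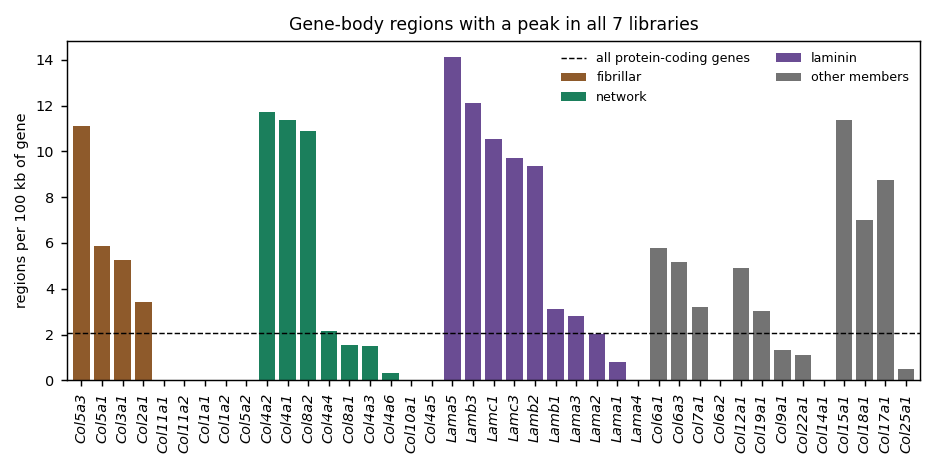
Gene-body regions with a peak in all 7 libraries per 100 kb of gene (bars, y axis) for each of the 41 genes, by class, with the value over all protein-coding genes (dashed line, 2.07). The tallest bars are Lama5 at 14.1, Lamb3 at 12.1 and Col4a2 at 11.7, and 10 genes are at 0.

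The highest-ranked region of all 41 genes lay in Col4a2, 69.8 kb from its start (chr8:11381897-11383249), at 99.5, 98.2, 99.5 and 99.8 in Nedd4L-cKO and 99.4, 99.6 and 99.8 in WT, above the promoter of the gene itself. In Col15a1 a region 86.2 kb into the gene (chr4:47292962-47294812) was at 96.4, 98.1, 98.7 and 98.4 and at 97.4, 98.3 and 98.8. In Col5a3 the highest of 3 strong regions within 10 kb of the start (chr9:20804271-20806388) was at 98.3, 92.1, 94.9 and 97.1 and at 95.6, 97.7 and 98.2. All of these were high in both genotypes.

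Some genes without a promoter peak in all libraries had open bodies. Lamb3 held a region 22.4 kb from its outermost start (chr1:193315587-193318002) at 93.2, 88.5, 98.6 and 95.5 in Nedd4L-cKO and 93.9, 91.8 and 96.7 in WT, the highest of the laminin genes. Col6a3 held regions at a median percentile of 92.7, 68.2 kb from its start (chr1:90775209-90776300), and of 91.3, 5.43 kb from its start (chr1:90838005-90839145). Col12a1, a FACIT collagen of tendon and fascia, held 10 regions, of which 6 were in all libraries. The highest, at 82.4, 84.1, 78.0 and 80.9 and at 80.1, 80.9 and 77.7, was centered 2.28 kb from the annotated start (chr9:79717807-79719915). A window of 2.5 kb therefore counted Col12a1 as open in 7 of 7 libraries. It also counted Col4a6 in 7 of 7, but there the wider window took in the promoter peak of Col4a5. Col9a1 and Col22a1 held 1 and 4 regions in all libraries, and Col10a1 held none.

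**Figure D5:**
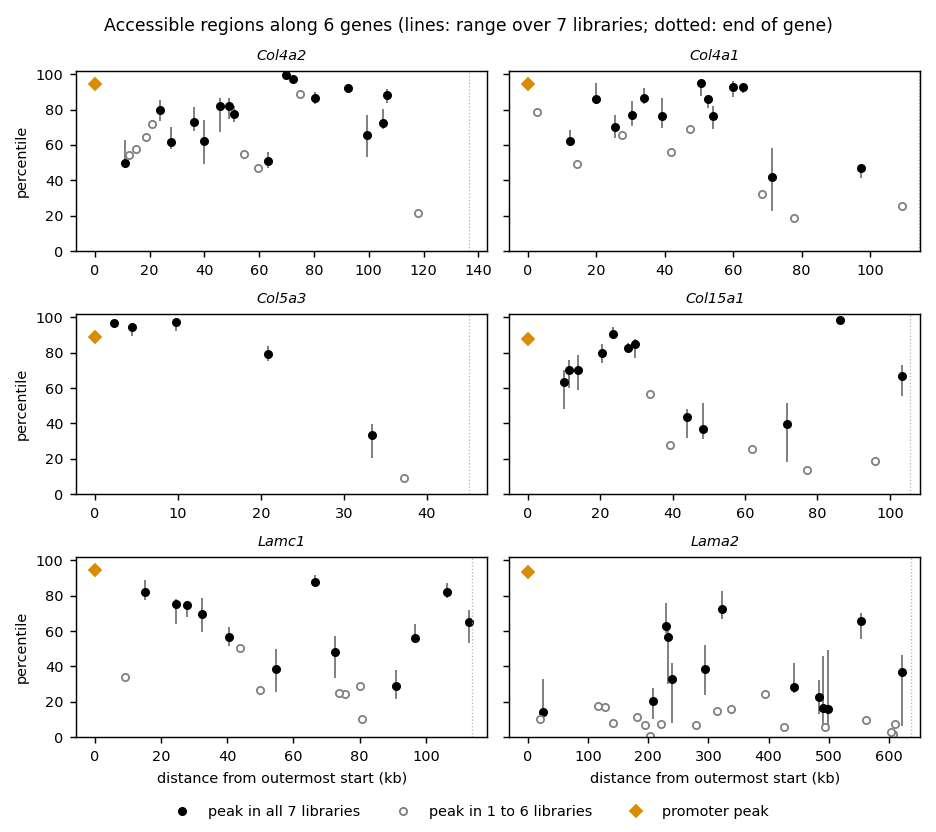
Percentile (y axis) of each accessible region against the distance of its center from the outermost start (x axis, kb) along Col4a2, Col4a1, Col5a3, Col15a1, Lamc1 and Lama2, with filled points for the median of regions with a peak in all 7 libraries, lines for their range, open points for regions in fewer libraries and a diamond for the promoter peak. In Col4a2 a region 69.8 kb from the start, at 99.5, is above the promoter, whereas the regions along Lama2 lie well below its promoter.

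A Nedd4L-cKO library had a peak in 223 ± 12.4 of the gene-body regions (SD, n = 4), and a WT library had one in 222 ± 2.0 (SD, n = 3). No region of the 307 was called in every library of one genotype and in none of the other, beside 0.151% of all 95163 regions. By limma over the 53245 regions with a peak in all libraries, 0 regions (0%) passed an adjusted p under 0.05, in these genes or elsewhere. At an unadjusted p under 0.05 there were 5 of the 165 regions (3.03%), beside 2.31% of all regions. The genotypes did not overlap at 4 of the 165 (2.42%), all in laminin genes (Lama2, Lama3, Lama5 and Lamc3), beside 3.23% of all regions. Of the 165 differences, 88 were above 0 in Nedd4L-cKO and 77 below.

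The lowest p belonged to a region of Lama2, 489.6 kb from its start (chr10:27127070-27128074). It was at 11.1, 16.3, 10.4 and 7.08 in Nedd4L-cKO and at 45.8, 20.6 and 31.3 in WT, so the normal score was lower in Nedd4L-cKO (-0.76 ± 0.18, SE, limma unadjusted p = 0.0027, adjusted p = 1.00). All libraries were in the lower part of the ranking there, while the Lama2 promoter differed by -0.015. In the other direction a region of Lama3, 102.4 kb from its start, was at 64.8, 66.6, 58.8 and 69.4 in Nedd4L-cKO and at 55.8, 55.3 and 56.1 in WT, a difference of 0.24 ± 0.094 (limma unadjusted p = 0.034, adjusted p = 1.00). The other regions under 0.05 lay in Lamc3 (-0.29 ± 0.099), Col22a1 (0.39 ± 0.15) and Col4a3 (-0.27 ± 0.11).

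Most genes that act with collagens and laminins were open too. All 5 basement membrane partners and all 14 matrix receptors had a promoter peak in all libraries, as had 12 of 15 genes for the processing and crosslinking of collagen. The receptors Itga7 and Calcr are also on the list of MuSC markers. Of the further collagen or laminin genes 9 of 14 were open in all libraries, about the share of all promoters (63.4%). Without a peak in any library were Plod2, a lysyl hydroxylase, Loxl2, a lysyl oxidase, and the collagen genes Col6a4 and Col28a1. None of the 40 open promoters of these lists passed an adjusted p under 0.05 by limma. At an unadjusted p under 0.05 there were 0, beside 2.34% of all promoters. The lowest p above 0 was that of Ddr2, a receptor for fibrillar collagen, at 93.6, 93.5, 93.8 and 95.5 in Nedd4L-cKO and 92.0, 93.2 and 92.5 in WT (limma unadjusted p = 0.14, adjusted p = 1.00), and the lowest below 0 that of Serpinh1, the collagen chaperone, at 86.3, 90.1, 84.7 and 86.2 and at 92.2, 86.4 and 90.5 (limma unadjusted p = 0.15, adjusted p = 1.00).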

How the data were processed

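ATAC-seq libraries were made by the authors from 5000 sorted MuSCs (ITGA7+, with hematopoietic, endothelial and SCA1+ cells gated out). Per the submitters' processing notes and the study's methods, reads were trimmed (Trimmomatic 0.39), aligned to mm10 (BWA 0.7.17) and deduplicated (Picard 2.26.3). Per the file headers, broad peaks were called for each library with MACS2 2.2.7.1 without a control (shift -100, extension 200 bp). The deposited pileup is a signal, the coverage by extended tags and not scaled to depth. Fold enrichment, also deposited, is the ratio to the local background within 10000 bp. The deposited p-value and q-value are given as −log10. The broadPeak and gappedPeak files hold the same calls and were not used.

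Peaks on the 19 autosomes, X and Y were used. The largest number of identical peaks in any pair of libraries was 0. Starts came from RefSeq on GRCm38 (promoter table and outer end of each span) with strands from GENCODE, for 21436 of 21883 protein-coding genes. For 12 of the 41 genes, which were not in the promoter table, the outer end alone was used. The highest pileup of a promoter or merged region was ranked among all peaks of its library and turned into a normal score (1 unit is 1 SD of the ranks). Genotypes were compared by limma 3.58.1 (lmFit, eBayes, two-sided, Benjamini-Hochberg, R 4.3.3) in all 7 libraries without covariates. P-values measure the spread between libraries, and the number of tags limits the detection of weak peaks. This fit was also run on simulated normal scores, with shifts larger than any difference given here. It does not show whether differences of the size given here would be found. The genes and lists were chosen with earlier results of these data known. All 41 genes are accounted for, and values per library are given for the highest and lowest of the fibrillar, network and laminin classes, for 9 genes with a known place in the niche, for partly open promoters and for the lowest unadjusted p in each direction. Also named are the gene with the most regions and the highest-ranked regions, and, of other matrix lists, those closed in all libraries or lowest in p. Regions of Col6a3, Col12a1, Lamc3, Col22a1 and Col4a3, and Lama5, were named after their values were seen. Alternatives were other windows, starts, thresholds, ranks, covariates, the replicate number as a block and leaving out each library.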

Additional observations from a re-analysis of the deposited data

Results flagged for a closer look

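The shared promoter peak of Col4a1 and Col4a2 stood apart in 1 Nedd4L-cKO library. Nedd4L-cKO replicate 4, the most deeply sequenced library, was at a percentile of 97.5, while the other Nedd4L-cKO libraries lay between 94.1 and 94.6, so that its gap to the next library was 0.851 of the range of the 4, more than Dixon's test allows at its 95% level. It was 1 of 36 measures examined in this way, of which chance flags about 1 in 20. Whether depth has a part in this value was not tested.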

How the results depend on the processing

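With a −log10 q of at least 5, 17 rather than 33 of the 41 promoters were open in all libraries (4 fibrillar, 2 network and 6 laminin genes). This share was below the 53.5% of all promoters, whereas without the threshold it was above that of all promoters. The genotype gap in their share was then 4.07 points. The network genes left were Col4a1 and Col4a2, which share 1 peak in all 7 libraries, so the network value rests on 1 promoter. Network minus fibrillar genes was 14.8 and laminin minus fibrillar genes was -18.7 percentile points. Ranked by fold these differences were 34.1 and 30.2 points. The genotype gap of 2.03 points fell to 0.813 with the outermost start alone, to 1.28 on autosomes alone and to 1.22 both with a window of 2.5 kb and without WT replicate 1, and was 1.63 to 2.44 without each other library. The cause was not tested, other than that the threshold leaves fewer genes. Under the other alternatives, including leaving out each library, from 32 to 35 promoters were open and both class differences moved by less than their SD over libraries. Without WT replicate 3, which leaves lane 1 alone, the class differences were -11.9 and 1.40. Counting a shared promoter once, chosen after seeing the data, gave -16.1 and 1.83.

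No promoter or region of any gene passed in the 17 promoter and 14 region alternatives. Ranking regions among shared regions alone was also chosen after seeing the data. The signs of Col5a1 by fold and Col5a3 with a window of 2.5 kb turned, to -0.031 and -0.030. Same-numbered libraries of both genotypes did not deviate together (r = -0.259, 0.045 and -0.182), so the numbers were not taken as pairs, and with the replicate number as a block 0 promoters and 0 regions of these genes were called. The peak lists hold no value for a closed promoter, so weak accessibility below the peak threshold could not be compared.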
